A study of Mus musculus and Homo sapiens with 15 samples.

Results

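Expression of 7 genes of PML nuclear bodies and the SUMO pathway was followed through every library of the series: Pml, Sp100, Daxx, Rara, Rnf4, Sumo2 and Sumo3 in mouse tumours, and the same symbols in capitals in human cells. They were chosen by name, as genes whose proteins arsenic acts on or through; the rule uses no measured value, though earlier results of these data were known when it was written. All 7 were found, among 52340 genes in the table for W/W mice, 56691 in the table for grafts in C57 mice and 61806 in the table for U937 cells.

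PML nuclear bodies are round structures of the cell nucleus built on the PML protein. PML carries SUMO, a small protein related to ubiquitin that is joined to other proteins, and SUMO draws partner proteins such as SP100 and DAXX into the bodies. Arsenic trioxide (ATO), a treatment of acute promyelocytic leukaemia, binds PML and the PML-RARA fusion protein of that disease, raises their modification with SUMO2 and SUMO3 chains, and thereby exposes them to RNF4, a ubiquitin ligase that recognises such chains and marks their bearer for the proteasome. Those events happen to proteins, whereas the values below are RNA levels.

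The series held RNA-seq libraries of 15 samples. Of these, 9 were thymus tumours of W/W mice, which carry p53 R282W on both alleles and had T-cell lymphomas, all taken at an age of 150 days: 3 from mice given water, 3 from ATO-treated mice with progressing tumours and 3 from ATO-treated mice with regressing tumours. Another 4 were tumours of a CDX model (tumours grown from grafted cells) in C57 mice with the genotype label WT, 2 given PBS and 2 given ATO; the labels name neither the grafted cell nor a dose or time. The last 2 came from U937, a line of human myeloid leukaemia cells, here with p53 R282W: 1 library with PBS and 1 with ATO. All W/W groups shared the mutant genotype, and the ATO groups of W/W mice were defined by outcome, so treatment and outcome cannot be told apart in a comparison with water. The labels do not tie each library to a separate animal, so p-values measure only the spread between these samples.

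Total counts ran from 12800367 to 17872972 reads a library. Levels are given as CPM, a gene's reads as a share of the library's total, set to one scale for all libraries, with the total adjusted in the mouse tables by the TMM factor, which makes the bulk of genes comparable between libraries. Each table was normalized separately, so levels set side by side across tables carry no test. The TMM factors of water replicate 2 (0.747) and progressing replicate 2 (0.794) stood apart from the other 7 W/W libraries (1.03 to 1.16), and results that change without them are given with both values. All 12 listed T cell and thymocyte markers were detected in every W/W and graft group, and the cell makeup of the W/W groups differed. Summed T cell and thymocyte markers reached 1384 to 2487 CPM in water, 4526 to 5150 CPM in progressing and 6219 to 11668 CPM in regressing tumours, while 7 B cell markers summed to 1160 to 7358, 93.2 to 157 and 1225 to 1763 CPM. The T cell sums hide mixed directions. By the test described below, 3 of the 12 were higher and 2 lower in progressing tumours against water, beside 11.9% of all tested genes. In regressing tumours 5 were higher and 0 lower, beside 7.70%. In bulk tissue, fewer cells of a type and less RNA per cell cannot be told apart.

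In progressing tumours 3 of the 7 genes, Pml, Sp100 and Daxx, fell against water; this count stood beside 11.9% of 18119 tested genes called in that comparison, 7.13% of them lower. A gene was called where the quasi-likelihood test of edgeR gave a p under 0.05 after Benjamini-Hochberg adjustment over all tested genes; 4.77% of them were called higher in progressing tumours. In regressing tumours 1 of the 7, Pml, fell, beside 7.70% of all genes called, 3.13% higher and 4.57% lower. Between the outcomes 2 of the 7 were called, Sp100 higher and Sumo3 lower in regressing tumours, beside 12.6% of all genes (6.45% higher, 6.18% lower). In the grafts 4 of the 7 were called with ATO, Pml and Sp100 higher and Rnf4 and Sumo3 lower, beside 13.9% of 15468 tested genes (7.37% higher, 6.57% lower). Rara and Sumo2 were called in none of the 4 comparisons. Both comparisons with water share the same 3 water libraries.

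**Figure D1:**
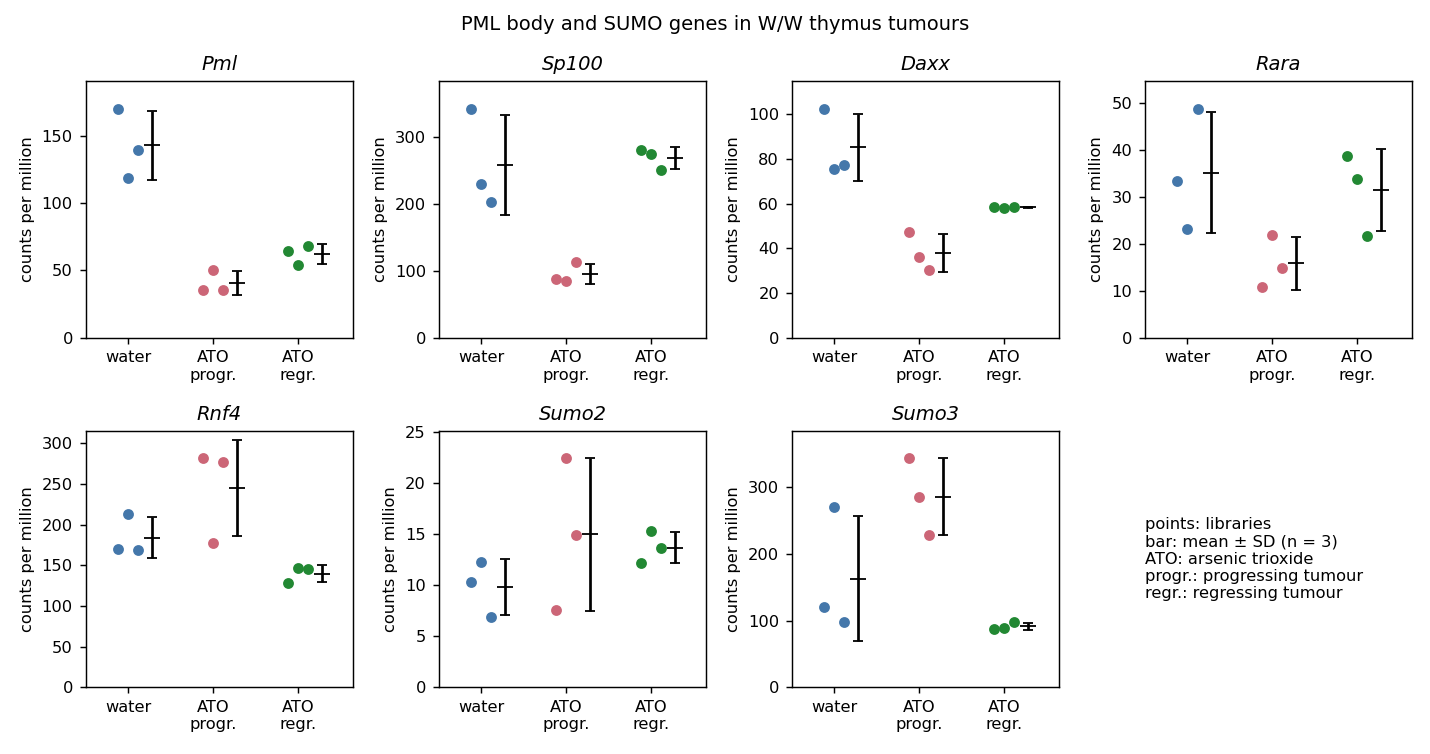
CPM of the 7 genes in the 9 W/W thymus tumours, 1 panel a gene; points are libraries and bars the mean ± SD (n = 3). The Pml panel shows all 6 ATO libraries at 35.1 to 68.0 CPM under the 3 water libraries at 119 to 170.2 CPM, and the Sp100 panel shows the progressing tumours apart from both other groups.

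Pml (ENSMUSG00000036986, chr9:58218076-58249786 in GRCm38, minus strand) encodes the scaffold of the bodies. Its level was 170.2, 119 and 139.7 CPM in water replicates 1 to 3, 35.5, 50.5 and 35.1 CPM in the progressing tumours, and 64.4, 54.2 and 68.0 CPM in the regressing tumours. Every ATO library was below every water library, and the 3 groups did not overlap. On the log2 scale Pml fell by 1.82 in progressing tumours (SE 0.28, edgeR adjusted p = 0.00493), a level 3.54-fold lower than in water. It fell by 1.20 in regressing tumours (SE 0.28, edgeR adjusted p = 0.0315), 2.30-fold lower. Between regressing and progressing tumours the log2 difference was 0.62 (95% interval 0.01 to 1.23, edgeR adjusted p = 0.150), which did not pass the threshold; it did without water replicate 2 and progressing replicate 2 together (0.89, edgeR adjusted p = 0.0276). The call in regressing tumours was lost in edgeR without regressing replicate 1 (adjusted p = 0.148), 2 (0.177) or 3 (0.0859) and without water replicate 1 (0.0727) or 3 (0.0567), and with total counts only (0.0603) or no filter on low counts (0.0672), while the log2 change stayed between -1.24 and -1.03.

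In the grafts Pml stood at 40.8 and 36.8 CPM with PBS and at 67.1 and 70.4 CPM with ATO. Both ATO libraries lay above both PBS libraries, the reverse of the order in W/W tumours. Pml rose by 0.83 in log2 terms (SE 0.21, edgeR adjusted p = 0.0270), 1.77-fold, and the difference in direction between grafts and W/W tumours was not tested. With 2 libraries a group the call was lost in edgeR without ATO replicate 2 (adjusted p = 0.0551), PBS replicate 1 (0.0943) or PBS replicate 2 (0.114).

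Sp100 (ENSMUSG00000026222, chr1:85649988-85709998 in GRCm38, plus strand) encodes a permanent, SUMO-modified resident of the bodies. It was counted at 343, 230.4 and 203 CPM in water, at 87.7, 85.2 and 113 CPM in progressing tumours and at 281, 275 and 251 CPM in regressing tumours. The progressing tumours lay below every library of both other groups, whereas regressing and water libraries overlapped. Sp100 fell by 1.44 in progressing tumours against water (SE 0.29, edgeR adjusted p = 0.0134), 2.72-fold lower. Regressing tumours were 2.82-fold above progressing ones (log2 1.498, SE 0.29, edgeR adjusted p = 0.0170). Against water, regressing tumours differed by 0.06 (95% interval -0.58 to 0.69, edgeR adjusted p = 0.917), with the sign turned to -0.094 without water replicate 3. The call against water was lost in a fit of only these 2 groups (edgeR adjusted p = 0.0526), and the call between outcomes was lost without regressing replicate 1 (0.0744) or 2 (0.0650).

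In the grafts Sp100 stood at 41.6 and 45.4 CPM with PBS and 79.6 and 87.1 CPM with ATO, without overlap. It rose by 0.94 (SE 0.21, edgeR adjusted p = 0.0172), 1.92-fold, a call lost without PBS replicate 1 (adjusted p = 0.0978). Pml and Sp100 thus rose together in the grafts and fell together in progressing W/W tumours, and they parted in regressing tumours, where Pml fell and Sp100 was not called. Some mouse gene copies carry stretches of Sp100: 5.92% of its 50-base windows also occur in other genes, the closest of which (Gm7582, Gm2619, Gm7609 and Gm7592) received at most 56 reads in any W/W or graft library.

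Pml and Sp100 are both known as interferon-inducible genes, so they were set beside 26 interferon response genes. Their summed level was 1031 to 1972 CPM in water, 418 to 858 CPM in progressing tumours and 1020 to 1748 CPM in regressing tumours. Of the 26 genes, 14 fell in progressing tumours against water, beside 7.13% of all genes (median log2 -2.16, against -0.04 over all genes tested). In regressing against progressing tumours 13 rose, beside 6.45% of all genes (median 2.10, against -0.07). In regressing tumours against water none was called, beside 7.70% of all genes (median -0.21, against -0.11), although Pml was. The largest falls in progressing tumours were those of Oas1a (log2 -4.16, SE 0.71), Oasl2 (-3.95, SE 0.62) and Ifit1 (-3.93, SE 0.76), with edgeR adjusted p of 0.00716, 0.00512 and 0.0113. In regressing against progressing tumours Oasl2 rose by 4.20 (SE 0.63), Ifi44 by 4.16 (SE 0.74) and Ifit1 by 4.05 (SE 0.77), with edgeR adjusted p of 0.00924, 0.0128 and 0.0158. In the grafts the sum was 488 to 493 CPM with PBS and 524 to 558 CPM with ATO. There 2 of 24 tested genes were called, beside 13.9% of all genes, and they went in opposite directions. Stat2 rose by 0.89 (SE 0.24, edgeR adjusted p = 0.0338) and Bst2 fell by 0.95 (SE 0.22, edgeR adjusted p = 0.0183).

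**Figure D2:**
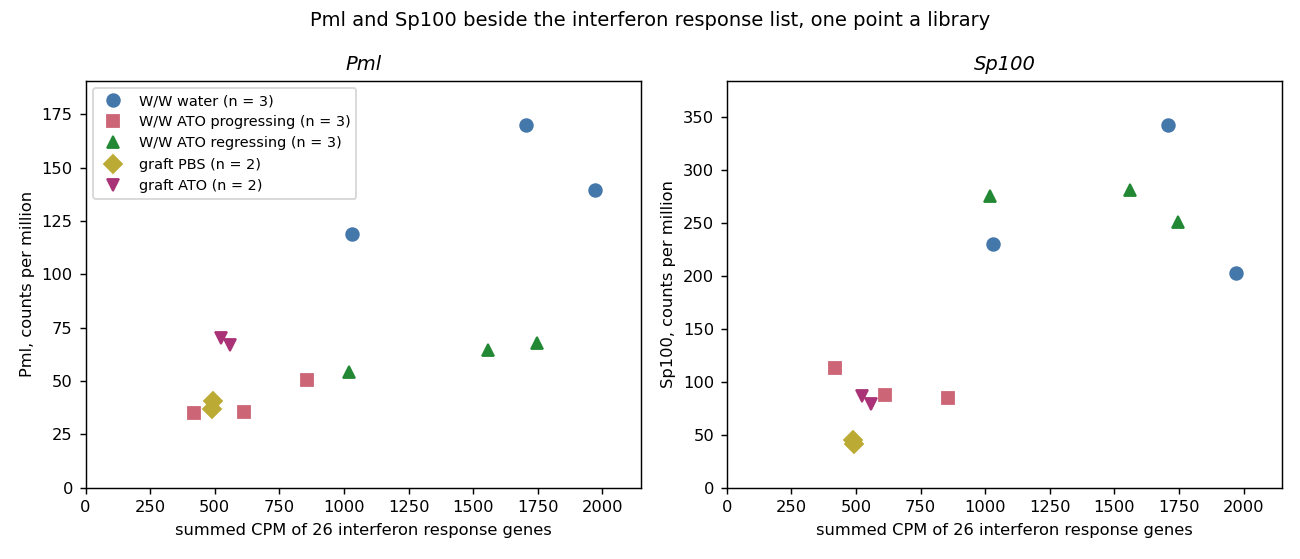
Level of Pml (left) and Sp100 (right) in CPM against the summed CPM of 26 interferon response genes, 1 point a mouse library, with W/W and graft tables normalized separately. Regressing tumours reach interferon sums of 1020 to 1748 CPM, within or near the water range of 1031 to 1972 CPM; their Sp100 (251 to 281 CPM) lies among the water values, and their Pml (54.2 to 68.0 CPM) below them.

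Other cell type lists also differed between the W/W groups, only some of them in the way of Sp100. All 7 B cell markers fell in progressing tumours against water, and 6 dendritic markers summed to 5.61 to 21.6 CPM there, against 66.1 to 133 CPM in water and 44.5 to 87.3 CPM in regressing tumours. Thymic epithelium markers summed to 23.3 to 77.9 CPM in progressing, 85.2 to 743 CPM in water and 1135 to 1320 CPM in regressing tumours. In progressing tumours against water 4 of 6 tested cytotoxic lymphocyte markers fell, though their sums overlapped (22.8 to 143 against 41.4 to 927 CPM). Sp100 was not called in regressing tumours against water. There 1 of 7 B cell markers (median log2 -3.27, against -0.11 over all genes) and 3 of 6 fibroblast markers fell. In that comparison 3 of 6 adipocyte markers rose, beside 7.70% of all genes called. Mitochondrial genes took 4.70% to 8.83% of counts in progressing tumours, 2.55% to 3.79% in water and 2.08% to 8.48% in regressing tumours. In that order, 7 proliferation markers summed to 2856 to 4299, 2284 to 2800 and 1996 to 2706 CPM. Between the outcomes 1 of these 7 markers was called, lower in regressing tumours, beside 12.6% of all genes. No B cell or dendritic marker was at 0 in every library of a W/W group. Water tumours, where Pml was highest, had the lowest summed T cell and thymocyte markers of the 3 groups, though 2 of the 12 were called lower in progressing tumours than in water. In the grafts 8 macrophage markers summed to 349 to 484 CPM with PBS and 122 to 174 CPM with ATO, 6 fibroblast markers to 212 to 469 and 602 to 1627 CPM, and mitochondrial genes took 0.521% to 1.02% and 4.03% to 5.98% of counts. The 12 T cell and thymocyte markers summed there to 7435 to 9248 CPM with PBS and 5062 to 6193 CPM with ATO. Of them 1 was called higher and 2 lower with ATO, beside 13.9% of all genes. Cytotoxic lymphocyte markers summed to 246 to 468 and 108 to 187 CPM. The part of these differences in the results for the 7 genes was not tested.

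Because Pml and Sp100 moved together in the grafts and in progressing tumours, the 250 bases before the first listed start of each are shown, read 5′ to 3′ on the gene's strand from RefSeq promoters of GRCm38.p6 (Pml chr9:58249787-58250036, minus strand; Sp100 chr1:85649738-85649987, plus strand). Capitals mark the letters GGGCGG or their complement, a GC box.
Pml: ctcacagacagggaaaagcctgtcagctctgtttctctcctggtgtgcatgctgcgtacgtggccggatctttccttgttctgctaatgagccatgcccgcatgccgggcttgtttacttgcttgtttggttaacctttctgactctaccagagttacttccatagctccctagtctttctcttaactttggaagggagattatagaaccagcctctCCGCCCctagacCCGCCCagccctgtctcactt
Sp100: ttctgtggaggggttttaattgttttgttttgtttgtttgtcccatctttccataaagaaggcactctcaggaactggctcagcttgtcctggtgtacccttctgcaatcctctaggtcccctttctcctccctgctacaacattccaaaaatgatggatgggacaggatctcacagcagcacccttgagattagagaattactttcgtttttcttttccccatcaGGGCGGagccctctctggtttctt
GGGCGG occurs 2 times before Pml and 1 time before Sp100, on either strand, and at least once in 32.7% of 32851 mouse promoter windows of this length. CCAAT was in neither and in 33.8% of all windows. The letters of an interferon response element (GAAA, then any 2 bases, then GAAA) were sought on both strands in the full 300-base windows, 250 before and 50 after a start. They were in 0 of 17 windows of the 7 genes, in 3.44% of all windows, and in windows of 11 of the 19 interferon genes found in that table. TTCNNNGAA, the letters that STAT factors are known to bind, were in 1 of the 17 windows, of Rara, and in 8.30% of all. No match says only that these letters are not in those windows.

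Daxx (ENSMUSG00000002307, chr17:33909414-33915590 in GRCm38, plus strand) encodes a histone chaperone held in the bodies through SUMO. Its level was 102, 75.5 and 77.2 CPM in water, 47.3, 35.9 and 30.4 CPM in progressing tumours and 58.3, 58.0 and 58.6 CPM in regressing tumours. The 3 groups did not overlap, with progressing tumours lowest and regressing tumours between. Daxx fell by 1.17 in progressing tumours (SE 0.28, edgeR adjusted p = 0.0251), 2.25-fold. In regressing tumours its log2 difference from water was -0.54 (95% interval -1.16 to 0.07, edgeR adjusted p = 0.226), and between the outcomes it was 0.62 (0.01 to 1.24, edgeR adjusted p = 0.153). The call in progressing tumours was lost in edgeR without progressing replicate 2 (adjusted p = 0.0625) or 3 (0.0895), without water replicate 1 (0.0811) and in a fit of only the 2 groups (0.0926). In the grafts Daxx stood at 50.8 and 46.1 CPM with PBS and 39.8 and 45.6 CPM with ATO, a log2 difference of -0.18 (95% interval -0.66 to 0.30, edgeR adjusted p = 0.607) that was 0.016 with total counts only.

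Rara (ENSMUSG00000037992, chr11:98927818-98974942 in GRCm38, plus strand) encodes retinoic acid receptor alpha, the partner of PML in the leukaemia fusion protein. It was at 33.4, 23.2 and 48.9 CPM in water, 10.8, 22.0 and 14.8 CPM in progressing tumours and 38.7, 34.0 and 21.8 CPM in regressing tumours. Progressing and water libraries did not overlap, with 22.0 against 23.2 CPM at the closest point, while regressing libraries overlapped both. The log2 difference of progressing tumours from water was -1.15 (95% interval -2.07 to -0.22, edgeR adjusted p = 0.0986), and that of regressing from progressing tumours 0.99 (0.07 to 1.91, edgeR adjusted p = 0.135). Both passed without water replicate 2 and progressing replicate 2 together, at -1.68 (edgeR adjusted p = 0.0325) and 1.38 (edgeR adjusted p = 0.0406). Against water, regressing tumours differed by -0.16 (-1.07 to 0.75, edgeR adjusted p = 0.827), with the sign turned to 0.15 without regressing replicate 3 or water replicate 3. The graft libraries overlapped, at 19.6 and 12.96 CPM with PBS and 13.9 and 23.4 CPM with ATO, a log2 difference of 0.20 (-0.57 to 0.96, edgeR adjusted p = 0.735) that was -0.25 without ATO replicate 2 and -0.093 without PBS replicate 2.

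In the comparison of progressing tumours with water, 4 of the 7 genes (Pml, Sp100, Daxx and Rara) lay below the water range in every library, where 14.7% of all tested genes did and 11.9% lay above it. In regressing tumours 4 of the 7 (Pml, Daxx, Rnf4 and Sumo3) lay below it, where 20.9% of all genes did, and none above it, where 19.3% did. Regressing lay wholly above progressing tumours in 3 of the 7 (Pml, Sp100 and Daxx), beside 21.4% of all genes, and wholly below in 2 (Rnf4 and Sumo3), beside 20.6%. In the grafts ATO lay wholly above PBS in 2 (Pml and Sp100), beside 31.7% of all genes, and wholly below in 3 (Daxx, Rnf4 and Sumo3), beside 30.0%. These counts depend on the TMM factors. In CPM of the plain total, Daxx (61.3 to 67.2 CPM in regressing tumours against 56.4 CPM in water replicate 2) and Rnf4 (up to 162 against 159 CPM in that library) overlapped water, while Sumo2 lay above it. By that scale Rara overlapped water in progressing tumours and Sumo3 lay above it, Rara lay wholly higher in regressing than in progressing tumours and Rnf4 overlapped between them, and Daxx overlapped in the grafts.

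**Figure D3:**
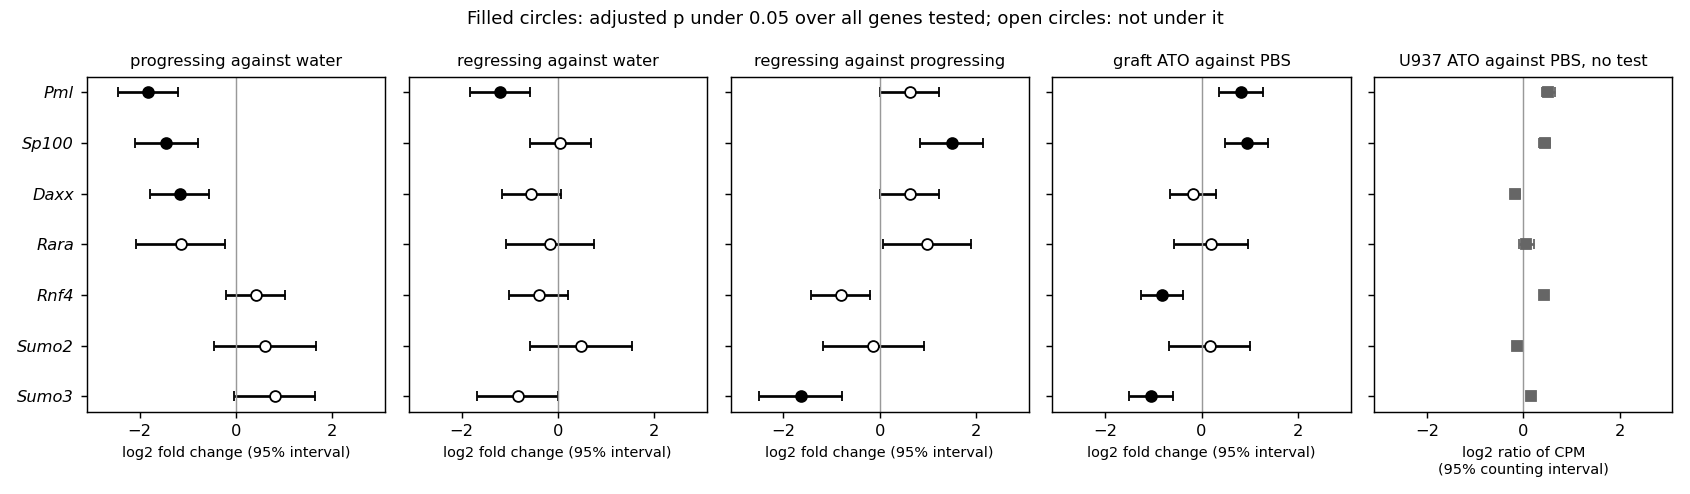
Log2 fold changes of the 7 genes with 95% intervals in the 4 tested comparisons, and the log2 ratio of CPM with its 95% counting interval in U937 cells, which have 1 library a group and no test. Filled circles passed an adjusted p of 0.05: Pml lies left of 0 in both comparisons with water and right of it in the grafts, and Sumo3 lies left of 0 in regressing against progressing tumours and in the grafts.

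Rnf4 (ENSMUSG00000029110, chr5:34336289-34355629 in GRCm38, plus strand) encodes the ubiquitin ligase that acts on SUMO chains. It was at 170.2, 213 and 169 CPM in water, 282, 177 and 277 CPM in progressing tumours and 128, 147 and 145 CPM in regressing tumours. The regressing tumours were below every library of both other groups, and progressing and water libraries overlapped. The log2 difference of regressing from progressing tumours was -0.81 (95% interval -1.43 to -0.19, edgeR adjusted p = 0.0789), which passed without water replicate 2 and progressing replicate 2 together (-0.93, edgeR adjusted p = 0.0176). Against water it was -0.40 in regressing (-1.01 to 0.22, edgeR adjusted p = 0.379) and 0.42 in progressing tumours (-0.20 to 1.03, edgeR adjusted p = 0.359), the latter 0.73 without those 2 libraries (edgeR adjusted p = 0.0494). In the grafts Rnf4 was at 282 and 271 CPM with PBS and 173 and 139 CPM with ATO, and it fell by 0.82 (SE 0.20, edgeR adjusted p = 0.0239), 1.77-fold. This call was lost in edgeR with total counts only (adjusted p = 0.0521), without ATO replicate 2 (0.0725) and without PBS replicate 1 (0.0905).

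Sumo2 and Sumo3 encode nearly the same modifier, and reads of Sumo2 cannot be assigned without doubt. The first coding bases of Sumo2 (chr11:115523102-115536276, minus strand), of its processed pseudogene Gm10241 (chr16:20176727-20177012, minus strand) and of Sumo3 (chr10:77606097-77618331, plus strand) are shown from GENCODE vM21 transcripts on GRCm38, since the counts turn on their likeness. Capitals mark bases that differ from Sumo2 in the alignment. Gaps are not marked, so 87 bases of Sumo3 stand beside 90 of Sumo2.
Sumo2: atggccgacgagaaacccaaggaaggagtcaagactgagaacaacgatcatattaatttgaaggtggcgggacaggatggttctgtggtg
Gm10241: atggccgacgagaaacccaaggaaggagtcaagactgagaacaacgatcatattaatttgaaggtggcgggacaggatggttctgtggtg
Sumo3: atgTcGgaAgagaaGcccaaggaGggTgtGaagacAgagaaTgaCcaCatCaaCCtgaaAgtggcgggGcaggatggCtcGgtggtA
Gm10241 is identical to all 285 coding bases of Sumo2, so a read from inside the coding part fits both. Sumo3 shares 82.3% of 282 aligned coding bases with Sumo2, leaving out 6 gap positions, and differs at 19 of the bases shown. Of the 50-base windows of Sumo2 19.2% also occur in another gene, 13.1% in Gm10241, and of those of Sumo3 8.70% do, 7.83% in Gm49325, which received at most 3 reads.

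Sumo2 (ENSMUSG00000020738) received 84 to 265 reads in the mouse libraries and Gm10241 227 to 1308, more than Sumo2 in all 13. Sumo2 was at 10.3, 12.2 and 6.85 CPM in water, 7.52, 22.4 and 14.9 CPM in progressing tumours and 12.2, 15.2 and 13.6 CPM in regressing tumours, so progressing libraries overlapped water and spanned the regressing ones. Its log2 differences were 0.61 (95% interval -0.46 to 1.67, edgeR adjusted p = 0.445) in progressing and 0.48 (-0.58 to 1.54, edgeR adjusted p = 0.542) in regressing tumours against water. When reads of Gm10241 were added to it, these became -0.64 (edgeR adjusted p = 0.312) and -0.74 (edgeR adjusted p = 0.241), so the direction for Sumo2 differs between the gene alone and the sum. Gm10241 lies within Yeats2, a gene on the opposite strand with up to 1852 reads, and the source of the reads assigned to Gm10241 was not tested. Between the outcomes the difference was -0.13 (-1.19 to 0.93, edgeR adjusted p = 0.878) and turned to 0.037 with upper-quartile scaling, 0.13 with total counts, 0.044 in limma-voom, 0.32 without progressing replicate 2 and 0.36 without that library and water replicate 2 together.

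In the grafts Sumo2 was at 6.12 and 7.85 CPM with PBS and 8.93 and 6.84 CPM with ATO, a log2 difference of 0.17 (95% interval -0.67 to 1.02, edgeR adjusted p = 0.794) that was -0.043 without ATO replicate 1 and -0.0092 without PBS replicate 1. With Gm10241 added, Sumo2 was called lower with ATO (-1.09, SE 0.22, edgeR adjusted p = 0.0137). Gm10241 itself stood at 52.2 and 51.2 CPM with PBS and 16.7 and 22.8 CPM with ATO and fell by 1.38 (SE 0.25, edgeR adjusted p = 0.00979).

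Sumo3 (ENSMUSG00000020265) was at 121, 269.6 and 98.3 CPM in water, 343, 285 and 228 CPM in progressing tumours and 88.1, 88.9 and 97.2 CPM in regressing tumours. The regressing tumours were lowest, below every library of both other groups, while water replicate 2 lay inside the progressing range and the other water libraries far under it. Sumo3 was 3.12-fold lower in regressing than in progressing tumours (log2 -1.64, SE 0.39, edgeR adjusted p = 0.0268). Without any 1 of the 6 libraries compared, that adjusted p rose to between 0.0521 (without progressing replicate 2) and 0.111 (without regressing replicate 1), with log2 values of -1.79 to -1.49. Against water, Sumo3 differed by -0.83 in regressing (95% interval -1.68 to 0.01, edgeR adjusted p = 0.183) and 0.81 in progressing tumours (-0.03 to 1.65, edgeR adjusted p = 0.192). Without water replicate 2 the difference of progressing tumours was 1.40 and passed (edgeR adjusted p = 0.0149), and that of regressing tumours was -0.18. In the grafts Sumo3 was at 278 and 219 CPM with PBS and 125 and 116 CPM with ATO and fell by 1.05 (SE 0.21, edgeR adjusted p = 0.0123), 2.07-fold, a call lost without PBS replicate 1 (edgeR adjusted p = 0.0612).

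To compare Sumo2 and Sumo3 with each other, the authors' FPKM were used, which divide reads by gene length and by the library's total. In W/W tumours Sumo3 stood at 26.8 to 99.4 FPKM and Sumo2 at 4.29 to 10.2 FPKM. Sumo3 made up 84.7%, 91.3% and 87.2% of the summed FPKM of the pair in water, 95.6%, 85.8% and 87.9% in progressing tumours and 77.4%, 73.4% and 77.3% in regressing tumours. By reads as assigned, the regressing tumours had the lowest Sumo3 share, below every other W/W library, and progressing and water libraries overlapped. The share of regressing tumours differed by -11.7 percentage points from water and by -13.7 from progressing tumours, each with an exact two-sided permutation p of 0.1, the smallest that 3 against 3 can give (0.15 adjusted over 3 such tests). Progressing tumours differed from water by 2.02 points (exact permutation p = 0.6), or by -0.899 without progressing replicate 1. In the grafts, by reads as assigned, Sumo3 took 95.6% and 93.0% with PBS and 86.9% and 88.9% with ATO, without overlap. In U937 cells SUMO3 took 65.0% with PBS and 69.6% with ATO, a lower share than in any mouse library by reads as assigned. Reads assigned to Gm10241 count in no mouse share, and their source was not tested. Gm10241 received 505, 1308 and 888 reads in water and 453, 373 and 514 in regressing tumours. In the grafts it received 717 and 763 with PBS and 227 and 347 with ATO. Counted as Sumo2, these reads would lower every mouse Sumo3 share, and shares that include them were not computed. The order of groups and of species is therefore shown only for reads as assigned, and the difference between species was not tested.

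**Figure D4:**
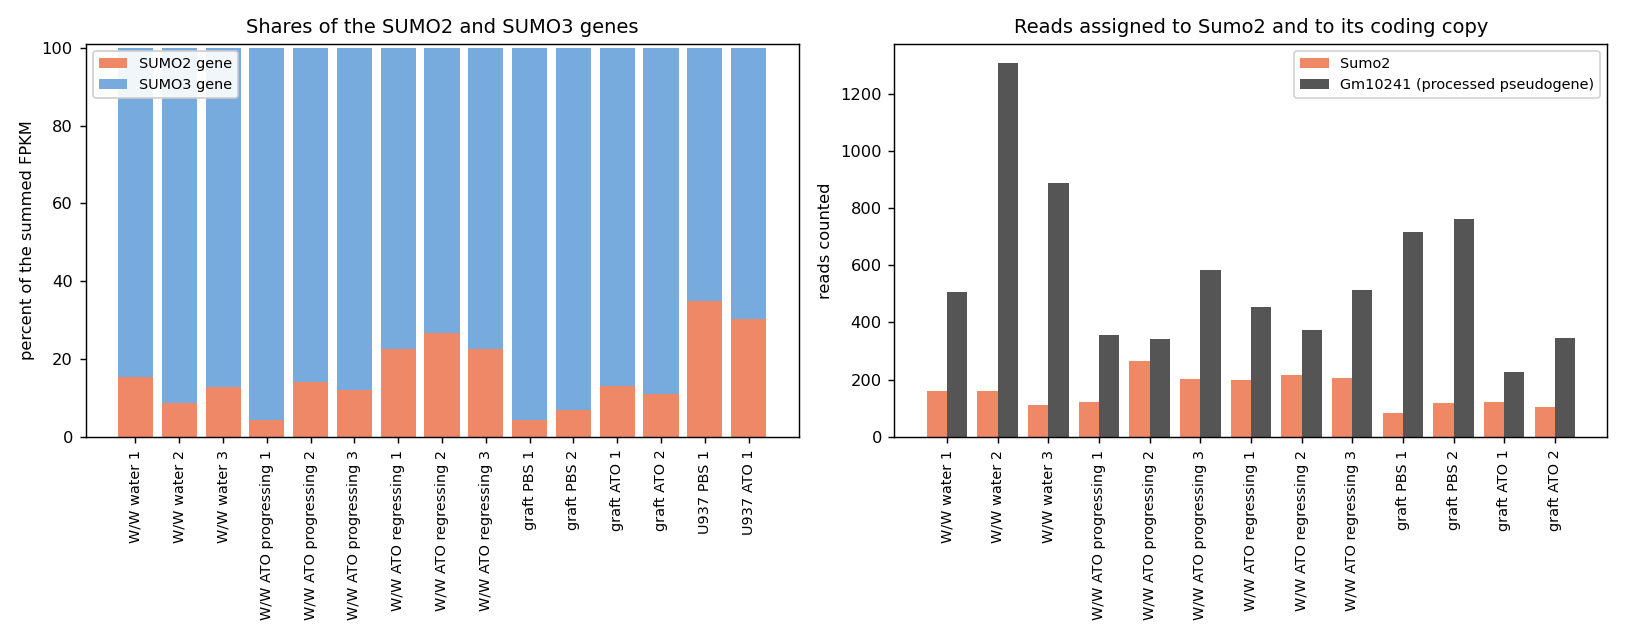
Left, the percent of the summed FPKM of the SUMO2 and SUMO3 genes that each took in the 15 libraries; right, reads assigned to Sumo2 and to its processed pseudogene Gm10241 in the 13 mouse libraries. By reads as assigned, without those of Gm10241, the Sumo3 share is 73.4% to 77.4% in regressing tumours and at least 84.7% in the other W/W libraries. The Gm10241 bar exceeds the Sumo2 bar in every mouse library.

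Per length, Sumo3 had the highest or next to highest mean of the 7 genes in each W/W group and Rara or Sumo2 the lowest. In water tumours mean FPKM was 39.0 ± 12.97 (SD, n = 3) for Sumo3, 32.8 ± 12.81 for Sp100, 25.9 ± 8.14 for Daxx, 24.8 ± 8.33 for Pml and 23.6 ± 2.02 for Rnf4. Neighbours in this order overlapped in their libraries, whereas Sumo3 (29.2 to 53.7 FPKM) lay above Rnf4 (21.3 to 25.2 FPKM) in every library. Rara (7.99 ± 4.15) and Sumo2 (5.19 ± 0.937) lay below those 5 and within each other's spread. In progressing tumours Sumo3 led with 75.0 ± 21.2 FPKM over Rnf4 with 33.1 ± 12.1, and Pml was at 6.80 ± 0.343 FPKM. In regressing tumours Sp100 led with 39.2 ± 4.21 FPKM, followed by Sumo3 with 27.4 ± 0.511, Rnf4 with 21.1 ± 1.05, Daxx with 20.4 (19.4 to 21.3) and Pml with 12.3 ± 1.34. In the grafts the FPKM of Pml was 6.29 to 6.70 with PBS and 12.6 to 13.7 with ATO, and in U937 cells PML was at 3.23 and 4.62 FPKM, the lowest of the 7 in either library.

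In U937 cells all 7 genes stayed within 2-fold between PBS and ATO, where 23.8% of 13722 genes averaging 1 CPM or more differed by at least 2-fold. With 1 library a group there is no test, the CPM of these cells use the plain total, and the intervals are exact binomial ones at 95% that cover counting error only. PML was at 40.9 CPM with PBS and 58.6 CPM with ATO (log2 ratio with a pseudocount of 1, 0.51; interval 0.38 to 0.66). SP100 was at 62.0 and 84.2 CPM (0.44; 0.33 to 0.56) and RNF4 at 112 and 150.1 CPM (0.42; 0.34 to 0.51). DAXX went the other way, with 117 and 104 CPM (-0.17; -0.26 to -0.07), as did SUMO2 with 172 and 156 CPM (-0.14; -0.22 to -0.07). Of their 50-base windows, 16.0% of RARA and 11.6% of DAXX also occur in another annotated gene. RARA was at 36.6 and 38.3 CPM (0.06; -0.10 to 0.22) and SUMO3 at 262 and 292 CPM (0.16; 0.10 to 0.21). The median log2 ratio over all those genes was 0.13, and with median-ratio size factors, which set most genes near 0, RARA (-0.11) and SUMO3 (-0.018) turned negative while PML (0.34), SP100 (0.26) and RNF4 (0.25) stayed positive. In both the grafts and U937 cells the PML and SP100 genes were higher with ATO, whereas Rnf4 was lower with ATO in the grafts and higher in U937 cells; no test spans the tables.

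**Figure D5:**
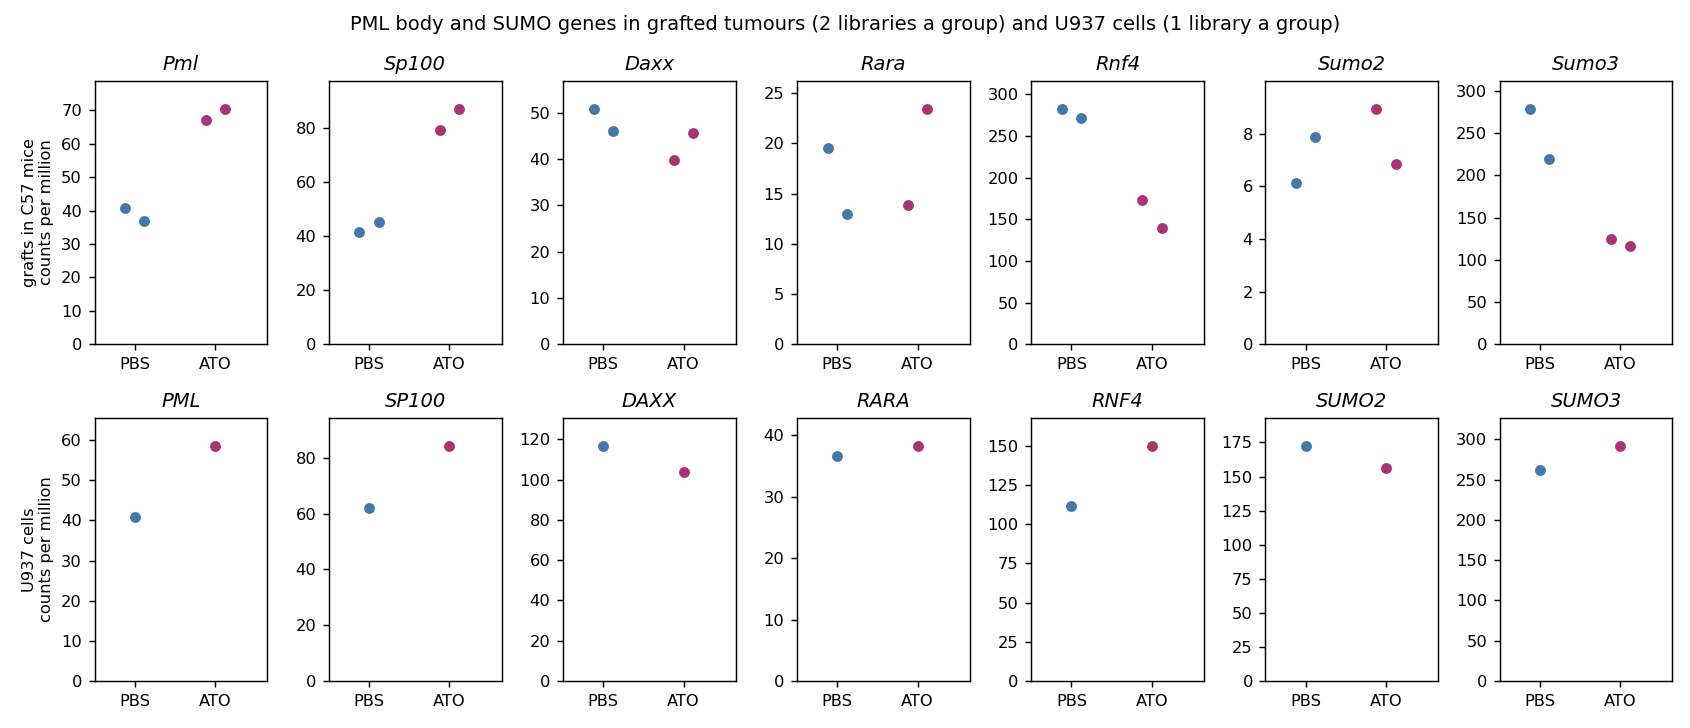
CPM of the 7 genes in the grafts (top, 2 libraries a group) and of the human genes in U937 cells (bottom, 1 library a group), with PBS and ATO; points are libraries, and every axis starts at 0. In the grafts the ATO points of Pml and Sp100 lie above and those of Rnf4 and Sumo3 below the PBS points, and the U937 pairs differ by less than 2-fold.

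The other genes of the pathway were taken as 6 lists with 59 genes: SUMO conjugation factors with the E1 and E2 enzymes, SUMO ligases, SUMO proteases, SUMO-targeted ubiquitin ligases with p97 factors, PML body partners and retinoid receptor partners. In progressing tumours against water 1 rose and 5 fell (median log2 0.27, against -0.04 over all genes tested), 6 of 59 beside 11.9% of all genes called, a share near the background. The largest falls were those of Arid3a (log2 -3.22, SE 0.47), a transcription factor, Rarg (-2.48, SE 0.61), another retinoic acid receptor, Sp140 (-1.85, SE 0.45), a relative of Sp100, and Rxra (-1.58, SE 0.37), the receptor that pairs with Rara. Trim24, a chromatin reader, rose (1.39, SE 0.36), and their edgeR adjusted p ran from 0.00369 to 0.0341. Sp140 moved in the direction of Sp100 in this comparison, with 24.0 to 80.8 CPM in water and 10.4 to 18.2 CPM in progressing tumours. Its regressing tumours, at 26.2 to 32.5 CPM, lay within the water range. In the grafts, where Sp100 rose, Sp140 overlapped between PBS (11.5 to 14.0 CPM) and ATO (10.5 to 15.3 CPM). Of 10 SUMO ligases and 7 SUMO proteases, 0 were called in edgeR against water in either ATO group, lists too short to set 0 apart from the 7.70% and 11.9% of all genes called.

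In regressing tumours against water 1 pathway gene rose and 1 fell of 59, beside 7.70% of all genes called (median log2 0.04, against -0.11 over all genes). Isg20, an interferon-induced nuclease found in the bodies, rose by 1.91 (SE 0.51, edgeR adjusted p = 0.0464), from 9.74 to 18.2 CPM in water to 39.3 to 54.4 CPM. Npm1, a nucleolar protein that is a rare fusion partner of RARA in leukaemia, fell by 2.46 (SE 0.43, edgeR adjusted p = 0.0140). In regressing against progressing tumours 3 rose and 5 fell, beside 12.6% of all genes called (median -0.12, against -0.07), with Isg20 (2.91, SE 0.53) and Rarg (2.27, SE 0.60) higher. Lower there were H3f3b (-1.96, SE 0.47), which encodes the H3.3 histone that DAXX deposits, Nsmce2 (-1.93, SE 0.49), a SUMO ligase of the SMC5/6 complex, and Topbp1 (-1.80, SE 0.38), a checkpoint protein, with edgeR adjusted p of 0.0136 to 0.0373 for these 5.

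In the grafts 4 of 56 tested pathway genes rose and 2 fell, beside 13.9% of all genes called (median log2 0.04, as over all genes). Atrx, the chromatin remodeller that works with DAXX, rose by 1.11 (SE 0.27), from 72.7 to 128 CPM with PBS to 192 to 240.2 CPM with ATO. Rnf111, another ubiquitin ligase that recognises SUMO, rose by 0.87 (SE 0.21) and Zfp451, a SUMO ligase, by 0.77 (SE 0.21). H3f3a, another H3.3 gene, fell by 0.97 (SE 0.20) and Stra6, a retinol uptake receptor, fell by 1.28 (SE 0.35), all 5 with edgeR adjusted p between 0.0149 and 0.0360. Rnf111 and Rnf4, 2 ligases for SUMO chains, thus changed in opposite directions.

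In U937 cells the pathway genes named here were picked for the size of their ratio, and all were higher with ATO. Among genes at 1 CPM or more, 3 of 18 PML body partners and 1 of 10 SUMO ligases were at least 2-fold higher. So were 2 of 6 SUMO-targeted ubiquitin ligases and p97 factors and 2 of 10 retinoid receptor partners. Of 4 SUMO conjugation factors and 7 SUMO proteases 0 were, and each list had 0 at least 2-fold lower. These counts stood beside 15.3% of all genes higher and 8.53% lower. SP140 went from 7 reads to 260 (log2 ratio with a pseudocount of 1, 3.59), RARG from 16.2 to 51.2 CPM (1.60), DHRS3, a retinaldehyde reductase, from 10.6 to 33.1 CPM (1.56) and USP11, a deubiquitinase, from 23.0 to 59.9 CPM (1.34). Of 22 interferon genes at 1 CPM or more, 9 were at least 2-fold higher and 1 at least 2-fold lower, where 15.3% of all genes were higher and 8.53% lower by as much (median log2 ratio 0.81, against 0.13). OAS1 went from 3.13 to 24.9 CPM (2.65), IFIT2 from 1.34 to 12.03 CPM (2.48) and STAT2 from 62.7 to 286 CPM (2.17).

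Genes with the most similar pattern over the 9 W/W libraries were found by the mean absolute difference of centred log2(CPM + 1) among 11414 named genes averaging 5 CPM or more. The 3 nearest to Pml were Msn (0.16), Lpxn (0.17) and Myd88 (0.17), where the median gene differed by 0.83. Sp100 was nearest to Trim65 (0.14), Rhof (0.18) and Trim25 (0.19), and Daxx to Phf13 (0.12), E2f5 (0.13) and Map2k1 (0.13). Rara had Fnbp1 (0.18), Sirt7 (0.22) and Prkx (0.23), and Rnf4 had G3bp2 (0.09), Prkrip1 (0.12) and Rrn3 (0.12). Sumo2 lay nearest to Hdac4 (0.11), Sf1 (0.13) and Sipa1l2 (0.16), and Sumo3 to Snhg8 (0.16), Atg5 (0.17) and Ccdc58 (0.18). No member was among the 3 nearest genes of another. These are descriptions over libraries that share depth and cell makeup.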

How the data were processed

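RNA was measured by sequencing in 9 W/W thymus tumours, 4 grafts and 2 U937 samples. Per the labels' protocols, RNA was isolated with TRIzol and a SMARTer kit served for the libraries; a cell culture passage in that text does not describe tumours. Per the submitters' processing notes, FastQC 0.10.1, cutadapt 1.9.1 and HISAT2 2.0.1 were used; the counting program and its use of strand are not given in the sources used here. The authors deposited raw counts per gene and FPKM in a table for each system. Per the file headers, each gene has coordinates: 99.4% of W/W genes match GENCODE vM21 (GRCm38), 98.2% of U937 genes match GENCODE v44 (GRCh38) and 2.83% of graft genes match vM21, so no graft coordinates are given. Counts were tested in R 4.3.3 with edgeR 4.0.16 (filterByExpr, TMM, quasi-likelihood test), all 9 W/W libraries in 1 fit of 3 groups and the 4 grafts in another. Each group has 1 to 3 libraries, which limits precision, and intervals of U937 ratios cover counting error only. Alternatives used RLE, upper-quartile and total-count scaling, no filter, DESeq2 1.42.0, limma 3.58.1 (voom), fewer groups and each library left out. The share of Sumo3 was taken over Sumo2 and Sumo3. The fit was tested on simulated data. Besides the 7 genes, the text names per comparison up to 5 pathway and 3 interferon genes of largest change among those called and averaging 1 CPM or more, and in U937 cells those of largest ratio with at least 10 CPM in a library. The genes and lists were chosen with earlier results of these data known. Some results within the rule are not reported here.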

Additional observations from a re-analysis of the deposited data

Results flagged for a closer look

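Pml in both ATO groups of W/W tumours, and Sp100 in progressing tumours, moved in the direction opposite to that in the grafts, with no overlap between the groups compared. Pml had a log2 change of -1.20 in regressing and -1.82 in progressing tumours against water, and of 0.83 in the grafts. Sp100 had a log2 change of -1.44 in progressing tumours and 0.94 in the grafts, while regressing tumours overlapped water (0.06, edgeR adjusted p = 0.917). The difference between the systems was not tested, since each table was normalized separately, and the controls were water in one system and PBS in the other.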

How the results depend on the processing

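The count of called genes among the 7 depended on single libraries. It was 0 to 1 in regressing tumours against water, 2 to 4 in progressing tumours against water, 0 to 1 between the outcomes and 0 to 4 in the grafts when each library was left out in turn, and where a group was left with 1 library that library is assumed to vary like the others. In regressing tumours against water it was 0 with total counts only, 0 without the filter on low counts and 0 with the replicate block (Pml edgeR adjusted p = 0.05695). In progressing tumours against water it was 1 in a fit of only the compared groups. Without water replicate 2 and progressing replicate 2 together, it was 6 for progressing against water and 5 between the outcomes. Of all 18936 genes tested there, 2895 and 3645 were called. That alternative was chosen after seeing the data, like the sum with Gm10241 and the crossed block. The replicate block changed no other call among the 7. Over all genes the block called 956 instead of 1396 genes in regressing tumours against water, 1405 instead of 2157 in progressing tumours against water, 1597 instead of 2289 between the outcomes and 1350 instead of 2157 in the grafts. Same-numbered W/W libraries had correlations of -0.12 to 0.14. In the grafts same-numbered libraries correlated at -0.13, and the crossed block called 4 of the 7 and 3298 genes. In that order of comparisons, all-gene calls were 2689, 3594, 3621 and 3274 without the filter and, in the W/W comparisons, 3354, 3733 and 4121 in DESeq2. They were 882 for progressing tumours in a fit of only the compared groups, 3645 between the outcomes without both libraries of low TMM factor, and 60 to 1190, 907 to 2557, 177 to 2000 and 685 to 2420 without 1 library.

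Leaving out libraries turned the signs of small differences: over such fits Sp100 ran from -0.094 to 0.31 and Rara from -0.32 to 0.15 in regressing tumours against water, Rara from -0.25 to 0.52 (-0.093 without PBS replicate 2) and Sumo2 from -0.043 to 0.34 (-0.0092 without PBS replicate 1) in the grafts, and Sumo2 from -0.45 to 0.32 between the outcomes. Daxx in the grafts turned to 0.016 with total counts. Sumo2 between the outcomes turned to 0.037 with upper-quartile scaling, 0.13 with total counts, 0.044 in limma-voom and 0.36 without both libraries of low TMM factor. With Gm10241 added, Sumo2 was -0.74 in regressing and -0.64 in progressing tumours against water and -1.09 in the grafts. In U937 cells median-ratio size factors gave 0.34 for PML, 0.26 for SP100, -0.34 for DAXX, -0.11 for RARA, 0.25 for RNF4, -0.32 for SUMO2 and -0.018 for SUMO3. Over the fits without 1 library the Sumo3 share difference of progressing tumours from water ran from -0.899 to 3.995 percentage points. Total-count scaling moved the median log2 change of all genes from -0.11 to 0.09 in regressing tumours against water, from -0.07 to 0.13 between the outcomes and from 0.04 to 0.23 in the grafts, where calls split 1800 higher to 520 lower (1397 to 811 with upper-quartile scaling) against 1140 to 1017. Causes of these changes were not tested.

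Limits: 2 or 3 libraries a group, groups defined by outcome, differing cell makeup, U937 cells without replicates, and Sumo2 coding sequence shared with a pseudogene bound what these RNA levels show; protein, SUMO modification and the bodies themselves were not measured.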
